A study of Mus musculus with 16 samples.

Results

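The genes described here encode 9 C-type lectin receptors of myeloid cells: Clec7a, Clec4n, Clec4e, Clec4d, Clec5a, Clec4a1, Clec4a2, Clec4a3 and Clec12a. They were taken by name from the gene table of the study, which holds 55385 genes, and all 9 were found there. Of these, 7 reached at least 1 FPKM in at least 4 libraries and were tested with 14795 genes in all. Clec4d and Clec4e did not reach that level and are given by their values alone. FPKM scales the sequenced fragments of a gene by its length and by the reads of the library, so levels of different genes can be compared per length.

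The study measured RNA in bulk from microglia sorted from mouse retina after optic nerve crush, an injury to the axons of the retinal ganglion cells. The mice were of the Iba1-EGFP strain, whose EGFP is driven from Iba1 (Aif1), a gene that macrophages other than microglia express as well. The day 0 mice had no treatment and were 15 weeks old, the mice of days 2 and 4 after the crush were 13 weeks old, and those of day 7 were 16 weeks old. Each day had 4 libraries, 16 in all. Age and day cannot be told apart between day 0 or day 7 and the other days, and the crush and the surgery around it cannot be told apart, since no sham group is among these samples. The titles of day 2 replicates 3 and 4 start with another letter (F) than all others (M), without a stated meaning. Whether each library stands for a mouse of its own is not in the labels, so p-values speak only of the spread among these 16 samples, and that spread may be technical.

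C-type lectin receptors bind sugars, lipids or proteins on microbes and on damaged cells through a lectin-like domain. Activating members pass the signal to the kinase Syk, either through a motif in their own tail or through a partner chain, FcRγ (Fcer1g) or DAP12 (Tyrobp), and from there to the adaptor Card9 and to cytokine genes. Inhibitory members carry a tail motif that recruits phosphatases such as SHP-1 (Ptpn6) and dampens the same kinases. Clec7a, which encodes Dectin-1, is well known as a gene that microglia switch on around damaged or degenerating neurons.

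All 9 genes lie on mouse chromosome 6. The Clec4a1 to Clec4e genes stand within a single cluster between positions 122921848 and 123289870, Clec12a and Clec7a stand between 129342691 and 129472779, and Clec5a stands apart at 40574894 to 40585821 (GRCm38). The annotation, GENCODE M21, lists Clec7a as a polymorphic pseudogene and the others as protein coding. No exon of a member overlapped an exon of another gene. The starts of the 2 most abundant members, Clec7a and Clec5a, are shown because Clec7a was called against day 0 and Clec5a was not. The difference in course between the 2 genes was not tested. Each line gives the 250 bases before the RefSeq start, 5′ to 3′ in the direction of the gene, in GRCm38.p6: chr6:129472780-129473029 on the minus strand for Clec7a and chr6:40585806-40586055 on the minus strand for Clec5a. Capitals mark the letters GAGGAA or their reverse complement TTCCTC, a core bound by PU.1, the master transcription factor of myeloid cells.
Clec7a: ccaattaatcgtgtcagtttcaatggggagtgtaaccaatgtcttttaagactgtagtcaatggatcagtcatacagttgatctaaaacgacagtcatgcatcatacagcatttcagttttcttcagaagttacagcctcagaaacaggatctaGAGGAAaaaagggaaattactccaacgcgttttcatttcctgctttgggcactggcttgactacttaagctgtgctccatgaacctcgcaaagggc
Clec5a: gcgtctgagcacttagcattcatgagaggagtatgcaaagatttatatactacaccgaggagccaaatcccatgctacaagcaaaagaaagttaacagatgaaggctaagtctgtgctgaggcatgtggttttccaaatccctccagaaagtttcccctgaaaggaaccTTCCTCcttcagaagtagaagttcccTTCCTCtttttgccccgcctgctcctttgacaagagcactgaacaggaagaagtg
The Clec7a window held this core once and the Clec5a window 2 times. Promoters of 8 of the 9 members were matched in the RefSeq table by symbol, and the core, searched on both strands, occurred in 7 of these 8 genes. It occurred in 25.9% of 27025 genes in the same table. The AP-1 letters TGANTCA occurred in 1 of the 8 members, Clec12a, against 7.82% of all genes. These matches describe letters in the windows and are not binding sites.

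Across the 4 days, Clec7a and Clec5a were the most abundant of the 9 receptors in uninjured retina, and Clec7a rose above all the others by day 4. At day 0, Clec7a averaged 110.6 FPKM ± 51.2 (SD, n = 4) and Clec5a 89.7 ± 53.5, and their libraries overlapped. Clec4a3 followed at 38.8 ± 28.7 FPKM, and the other 6 averaged between 0 and 9.37 FPKM. By day 7 Clec7a averaged 502.4 ± 114.0 FPKM, above 99.3% of all tested genes, and no library of any other member reached its range. Its mean at day 0 was already above 96.5% of all tested genes. Clec4a3 and Clec5a came next, at 88.7 ± 28.5 and 50.5 ± 15.7 FPKM, and did not differ beyond their spread in this order.

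**Figure D1:**
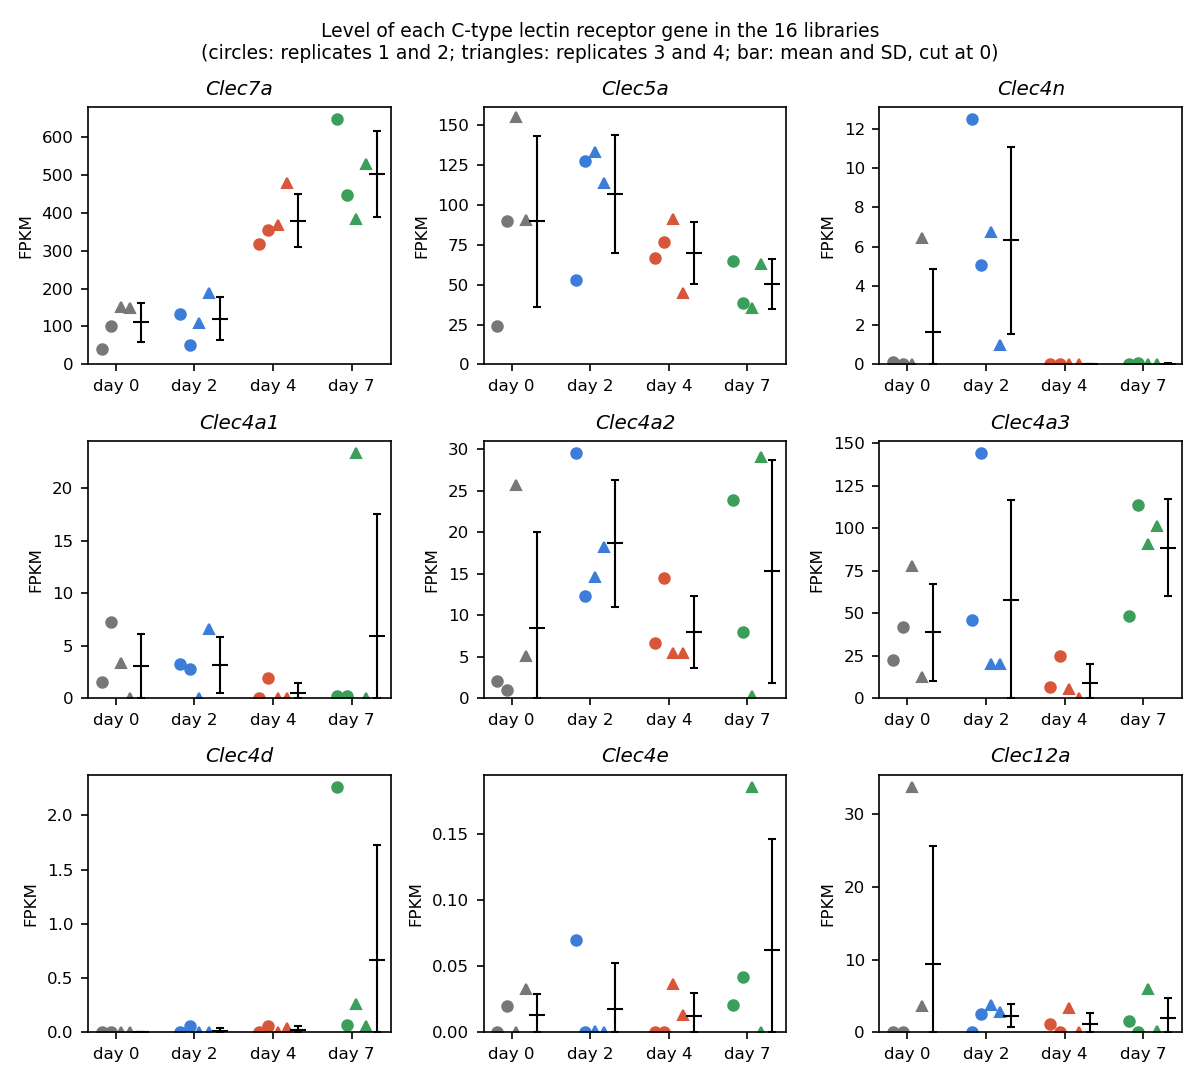
Level of the 9 receptor genes in FPKM (vertical axes, each panel with its own scale) in the 4 libraries of each day. Points are libraries and bars give the mean and SD. Clec7a lies between 41.6 and 187.3 FPKM at days 0 and 2 and between 316.3 and 648.4 FPKM at days 4 and 7.

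The libraries held 8647276 to 15708302 reads in genes and 9315 to 16522 genes at 1 FPKM or more. Microglia markers were high in every library, with 9 genes such as P2ry12, Tmem119 and Cx3cr1 summing to 1034 to 4509.8 FPKM at day 0 and to 1771 to 4133 FPKM later. The lowest sum was that of day 0 replicate 1, which also had the highest sum of 10 Mueller glia markers, 1497 FPKM, so this library stands apart. Rod markers summed to 1514 to 10160 FPKM over all libraries. In bulk RNA, fewer cells of a type and less RNA per cell cannot be told apart.

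Clec7a, the receptor for fungal beta-glucan that signals through Syk and Card9, was the only member that passed the test against day 0, at days 4 and 7. At day 0 its 4 libraries stood at 41.6, 101.9, 151.0 and 147.8 FPKM, in the order of replicates 1 to 4. At day 2 they stood at 133.4, 50.2, 110.2 and 187.3 FPKM. The 2 days overlapped, and the change of 0.14 ± 0.38 (SE) in log2(FPKM + 1) did not pass the test (limma, adjusted p = 0.952).

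At day 4 the Clec7a libraries stood at 316.3, 353.8, 366.5 and 478.9 FPKM, and at day 7 at 648.4, 447.1, 384.5 and 529.6 FPKM. Every library of both days was higher than every library of days 0 and 2. The ratio of the mean FPKM to day 0 was 3.43 at day 4 and 4.54 at day 7. The change in log2(FPKM + 1) was 1.91 ± 0.38 (SE) at day 4 (limma, adjusted p = 0.0106) and 2.31 ± 0.38 at day 7 (limma, adjusted p = 0.0223). Clec7a was the only one of the 7 tested members called in each of these comparisons, where 5.34% of all genes were called at day 4 and 0.406% at day 7. Groups without overlap, with every later library higher, occurred in 12.6% of all genes at day 4 and in 2.51% at day 7. Between days 4 and 7 the Clec7a change was 0.40 ± 0.38 (limma, adjusted p = 0.648), with 2 of 4 libraries above all of day 4.

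The step between days 2 and 4, between mice of the same age, was 1.78 ± 0.38 in log2(FPKM + 1) for Clec7a, with 4 of 4 libraries above all of day 2. It missed the threshold (limma, adjusted p = 0.0543), in a comparison where 0.453% of all genes were called and 7.83% did not overlap upward. Of its alternatives it passed in 2, without day 0 replicate 1 (limma, adjusted p = 0.0256) and over the genes with at least 5 FPKM in 4 libraries (adjusted p = 0.0342), and the highest adjusted p was 0.202, without the libraries of prefix F. Days 2 and 4 share no full title code, and with that code in the fit, which compares them through the other days, the change was 2.5 (limma, adjusted p = 0.110). Over the 4 days together, Clec7a passed the F test (limma, adjusted p = 0.00491), as 2.89% of all genes did. No other member did: Clec4a3 had an adjusted p of 0.0521 and Clec4n of 0.0756 in the same limma F test, and the others were at 0.499 or more.

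The first 4 digits of a code in the sample titles put replicates 1 and 2 of every day in one set and replicates 3 and 4 in another, and what the code stands for is not stated. Clec7a was higher in both sets, by 2.34 and 1.48 in log2(FPKM + 1) at day 4 and by 3.03 and 1.59 at day 7. The difference between the sets was not called (limma interaction, adjusted p = 0.806 and 0.577). With each set fitted alone the changes missed the threshold (limma, adjusted p = 0.0763 and 0.2025 at day 4, 0.1728 and 0.1666 at day 7).

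The day 4 call of Clec7a held without each of the 16 libraries in turn (limma, adjusted p of 0.0448 at most). A change of scaling and a covariate for other cells ended it. With libraries rescaled by median-of-ratios factors the change was 1.44 ± 0.38 (limma, adjusted p = 0.0673). This rescaling moved the median change of all genes at day 4 from 0.16 to −0.16, so Clec7a stood 1.76 above the median gene before it and 1.61 above it after. With the bipolar cell and Mueller glia markers as a covariate the change was 1.08 ± 0.72 (limma, adjusted p = 0.657). No gene at all was called at day 4 in that fit. The covariate, a mean of log2(FPKM + 1), was 2.24 to 5.10 at day 0 and 1.13 to 1.87 at day 4. Without overlap, the fit cannot separate these cells from the day, so the lost call at day 4 decides nothing about the covariate. The day 7 call ended with that covariate (2.06, adjusted p = 0.0963), without day 7 replicate 1, 2 or 4 (limma, adjusted p = 0.0561, 0.0586 and 0.0596), without the filter on low values (adjusted p = 0.0746), with the full title code (adjusted p = 0.0596) and with only days 0 and 7 in the fit (limma, adjusted p = 0.1486). The sums of 10 bipolar markers fell between 94.3 and 462.0 FPKM at day 0, 9.86 and 87.5 at day 4, and 99.4 and 400.8 at day 7. The sums of 10 Mueller markers fell between 147.5 and 1497 FPKM at day 0, 59.5 and 74.3 at day 4, and 133.1 and 620.3 at day 7. Their part in the Clec7a result was not tested beyond this covariate, which cannot settle it at day 4.

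A ratio within a library does not depend on how libraries are scaled. Clec7a made up 4.02, 3.8, 3.45 and 3.28% of the summed FPKM of the 9 microglia markers in the 4 libraries of day 0, and day 0 replicate 1 thus lay with its group on this measure. The value was 3.7, 2.0, 2.78 and 4.53% at day 2. It was 13.2, 15.3, 14.4 and 19.02% at day 4 and 19.7, 15.1, 16.4 and 29.9% at day 7. The highest library of days 0 and 2 stood well under the lowest of days 4 and 7. This measure was chosen after the values were seen and is given as a description, and a ratio shows unequal change of its 2 sides and not which side changed. Of the 9 microglia markers, 1 rose at day 4, Fcrls, where 5.34% of all genes were called, and 5 had negative changes. P2ry12, the largest of these, averaged 832.9 ± 450.2 FPKM at day 0 and 291.9 ± 85.4 FPKM at day 4 (SD, n = 4; change −1.32, limma, adjusted p = 0.135). None of the 9 passed at day 7, when 4 had an unadjusted limma p under 0.05, with Cx3cr1, P2ry13 and Tmem119 lower and Olfml3 higher. The markers in the sum under the Clec7a share thus had changes of both signs.

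**Figure D2:**
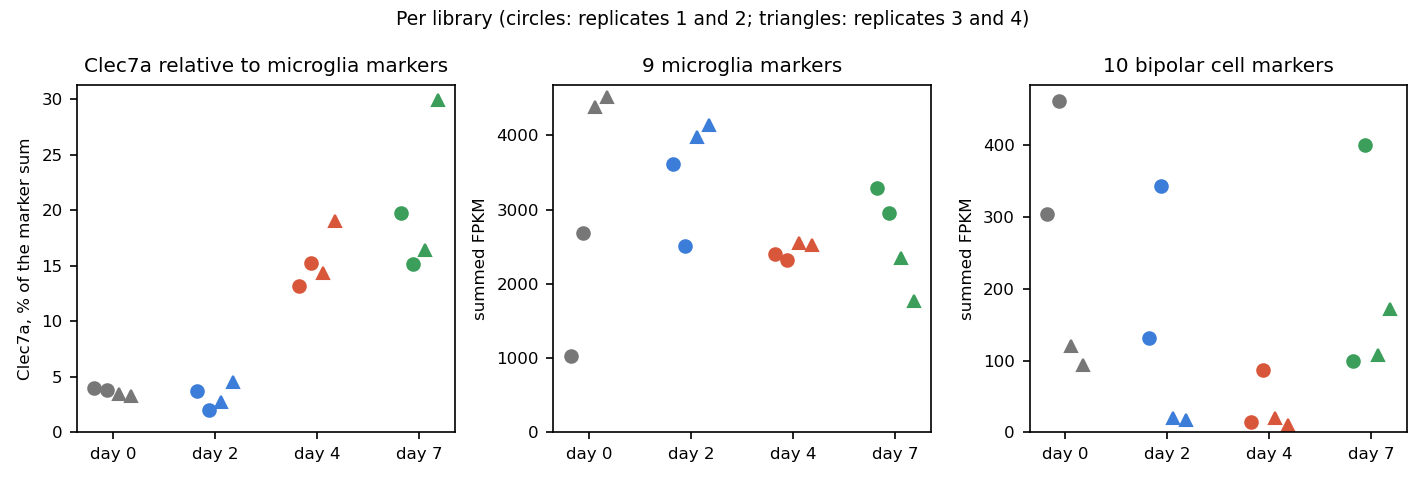
Clec7a as a percentage of the summed FPKM of 9 microglia markers (left), that sum (middle) and the summed FPKM of 10 bipolar cell markers (right) in each library by day. Clec7a stays at or under 4.53% of the marker sum at days 0 and 2 and lies at 13.2% or above at days 4 and 7.

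Clec4n encodes Dectin-2, which binds mannose-rich glycans and signals through FcRγ. Its 4 libraries stood at 0.147, 0, 0 and 6.46 FPKM at day 0 and at 12.5, 5.05, 6.74 and 1.0 FPKM at day 2. At day 4 they stood at 0, 0, 0 and 0.0448 FPKM, and at day 7 at 0, 0.0728, 0 and 0 FPKM. Clec4n was thus at 1 FPKM or more in all 4 libraries of day 2 and in 1 of the other 12, day 0 replicate 4. Behind these values stood 345 reads at day 2 and 1 read each at days 4 and 7, and a value of 0 allows up to 0.134 to 0.244 FPKM (3 reads, counting error only). The day 2 change was 1.80 ± 0.64 in log2(FPKM + 1) and was not called (limma, adjusted p = 0.338). None of the 7 members was called at day 2, where 0.311% of all genes were, and Clec4n was the only one with an unadjusted p under 0.05 in limma. All 4 libraries of day 4 were lower than all of day 2, as in 1.69% of all genes, and that change of −2.56 ± 0.64 was not called (limma, adjusted p = 0.102). Clec4n reached the filter of 4 libraries at 1 FPKM through the 4 libraries of day 2, where it is high, so its tests against day 2 are no independent support. With all libraries Clec4n was not called in any comparison. It passed only without day 0 replicate 4, the only library of day 0 that holds more than 2 of its reads. Without that library the change at day 2 against day 0 was 2.57 (limma, adjusted p = 0.0404). The change of day 4 against day 2 stayed at −2.56, with an adjusted p of 0.0308 in the same limma fit. These passes are no independent support either.

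Clec4e and Clec4d encode Mincle and MCL, paired receptors for mycobacterial glycolipid and, for Mincle, for a protein released by dying cells. Both were near 0 throughout. Clec4e never passed 0.185 FPKM, its value in day 7 replicate 3, and was listed at 0 in 7 of 16 libraries. Clec4d was listed at 0 in all 4 libraries of day 0 and in 9 of 16 in all. Its highest level was 2.26 FPKM in day 7 replicate 1, from 35 reads, and the other 3 libraries of day 7 stood at 0.0647, 0.266 and 0.0635 FPKM. At days 4 and 7, when Clec7a was high, the 3 receptors that pair with FcRγ were thus at or near 0 in all libraries but day 7 replicate 1, where Clec4d alone passed 1 FPKM.

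Clec5a encodes MDL-1, a receptor that pairs with DAP12 and is known for its part in inflammation set off by flaviviruses. Its 4 libraries stood at 23.8, 89.9, 154.8 and 90.4 FPKM at day 0 and at 52.8, 127.5, 133.3 and 113.5 FPKM at day 2. At day 4 they stood at 67.0, 76.5, 91.3 and 44.8 FPKM, and at day 7 at 65.0, 38.4, 35.5 and 62.9 FPKM. All 4 days overlapped with day 0. The changes in log2(FPKM + 1) against day 0 were 0.43 (95% confidence interval −0.55 to 1.42) at day 2, −0.13 (−1.12 to 0.85) at day 4 and −0.60 (−1.59 to 0.38) at day 7, and none passed the test (limma, adjusted p = 0.828, 0.900 and 0.623). A p that misses the threshold does not show that Clec5a was unchanged, and the intervals give the changes these data leave room for.

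The Clec7a level divided by the Clec5a level in the same library was 1.75, 1.13, 0.975 and 1.63 at day 0, and 2.53, 0.394, 0.827 and 1.65 at day 2. It was 4.72, 4.62, 4.01 and 10.7 at day 4, and 9.97, 11.6, 10.8 and 8.42 at day 7. Every library of days 4 and 7 lay above every library of days 0 and 2. In the same libraries Clec7a made up 33.8 to 55.5% of the summed FPKM of the 9 receptors at day 0, 14.6 to 53.5% at day 2, 75.0 to 90.5% at day 4 and 71.0 to 82.1% at day 7. The summed FPKM of the 9 averaged 261.7 ± 145.2 at day 0 and 665.5 ± 111.9 at day 7 (SD, n = 4). These shares are descriptions of the same Clec7a and Clec5a values and were not tested.

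**Figure D3:**
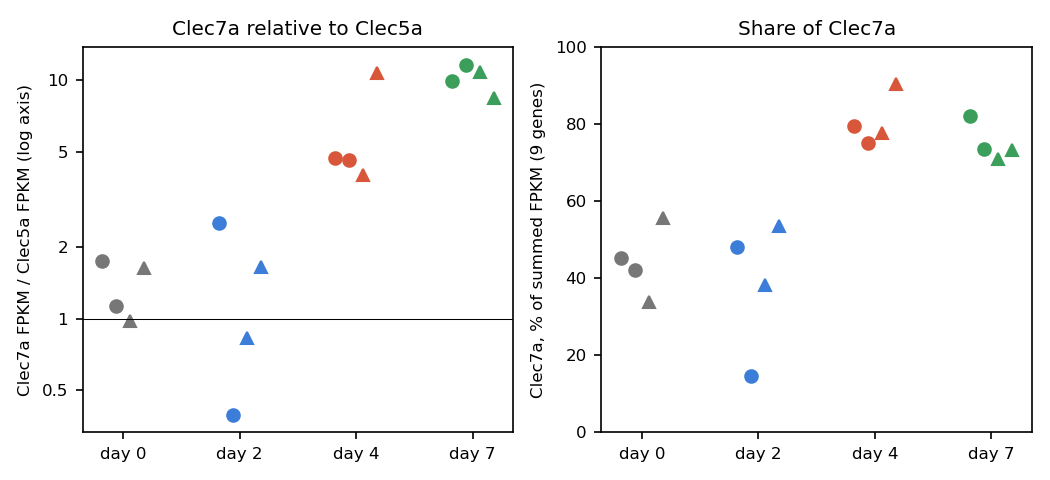
Clec7a FPKM divided by Clec5a FPKM on a log axis (left) and Clec7a as a percentage of the summed FPKM of the 9 receptors (right), one point per library by day, with circles for replicates 1 and 2 and triangles for replicates 3 and 4. The ratio lies between 0.394 and 2.53 at days 0 and 2 and between 4.01 and 11.6 at days 4 and 7.

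Clec4a3 belongs to the DCIR family, which carries inhibitory and activating members side by side on the chromosome. It was low at day 4 and high at day 7. Its libraries stood at 22.7, 42.1, 77.8 and 12.7 FPKM at day 0 and at 45.9, 144.1, 20.4 and 20.2 FPKM at day 2. At day 4 they stood at 6.81, 25, 5.57 and 0 FPKM, and at day 7 at 48.3, 113.9, 91.0 and 101.4 FPKM. All 4 libraries of day 7 were higher than all 4 of day 4, a pattern that 2.23% of all genes shared. From day 4 to day 7 Clec4a3 rose by 3.82 ± 0.78 in log2(FPKM + 1) (limma, adjusted p = 0.0272), a ratio of means of 9.5. It was the only one of the 7 members called in this comparison, where 1.63% of all genes were called and 0.128% were called higher.

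Against day 0, Clec4a3 was 2.42 ± 0.78 lower at day 4, with 3 of 4 libraries below all of day 0, and this was not called (limma, adjusted p = 0.0874). At day 7 it was 1.40 ± 0.78 higher than at day 0, with 3 of 4 libraries above all of day 0, and was not called either (limma, adjusted p = 0.488). The rise from day 4 to day 7 was 2.4 in replicates 1 and 2 and 5.24 in replicates 3 and 4, and the sets fitted alone missed the threshold (limma, adjusted p = 0.1906 and 0.2154). The call also ended with a pseudocount of 0.1 (4.75, limma, adjusted p = 0.0677), without the filter (adjusted p = 0.1015), with the full title code (adjusted p = 0.106), with the marker covariate (5.06, adjusted p = 0.1615), and with only days 4 and 7 in the fit (adjusted p = 0.0811). Leaving out 1 library ended it for day 4 replicates 1 and 4 and day 7 replicates 2, 3 and 4, with a limma adjusted p of at most 0.0835. Between the same days, the bipolar marker Pcp2 rose by 4.53 (limma, adjusted p = 0.0226), the bipolar sums went from 9.86 to 87.5 FPKM up to 99.4 to 400.8 FPKM, and all 10 bipolar and all 10 rod markers had positive changes. The part of these cells in the Clec4a3 result was tested only through the covariate. That covariate did not overlap between day 4 (1.13 to 1.87) and day 7 (2.08 to 3.86), so it cannot separate these cells from the day.

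Clec4a2 encodes DCIR, an inhibitory receptor with a tail motif for phosphatases. Its libraries stood at 2.14, 0.966, 25.7 and 5.09 FPKM at day 0 and at 29.5, 12.3, 14.6 and 18.2 FPKM at day 2. At day 4 they stood at 6.72, 14.5, 5.43 and 5.52 FPKM, and at day 7 at 23.9, 7.95, 0.265 and 29.1 FPKM. The spread within a day was as wide as any difference between days, and no comparison was called. The largest change was 1.73 ± 0.93 in log2(FPKM + 1) at day 2 (limma, adjusted p = 0.571).

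The value of Clec4a2 may rest in part on reads that cannot be told from those of neighbours, which was not tested on the reads themselves. Of the 50-base windows of its transcripts, 6.83% also occur in another gene, 114 of them in Clec4a4 and 68 in Clec4b1. Clec4a4 encodes DCIR2, another inhibitory member. The longest coding stretch that Clec4a2 shares with Clec4a4 is shown because reads from it fit both genes. The lines give coding bases 55 to 257 of each, counted from the start codon, from the GENCODE M21 transcripts, with the shared 163 bases in capitals.
Clec4a2: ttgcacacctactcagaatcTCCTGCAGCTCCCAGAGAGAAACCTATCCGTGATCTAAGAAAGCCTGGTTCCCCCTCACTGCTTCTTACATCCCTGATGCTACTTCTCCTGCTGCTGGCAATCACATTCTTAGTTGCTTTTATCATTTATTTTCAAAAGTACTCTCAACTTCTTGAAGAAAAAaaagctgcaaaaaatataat
Clec4a4: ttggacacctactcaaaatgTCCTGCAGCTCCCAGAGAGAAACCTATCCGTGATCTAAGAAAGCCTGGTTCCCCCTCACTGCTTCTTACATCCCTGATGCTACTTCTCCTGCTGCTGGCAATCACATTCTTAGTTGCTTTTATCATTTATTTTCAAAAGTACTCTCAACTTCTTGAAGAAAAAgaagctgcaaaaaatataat
The recovered reads of Clec4a2 were often fractions, for example 974.5 in day 0 replicate 3, and the sources used here do not give how reads that fit several genes were counted. The same window count was 0 for Clec7a, Clec5a, Clec4a3, Clec4a1, Clec4d and Clec4e, 0.457% for Clec12a and 0.686% for Clec4n. Fractional reads were as common in Clec4a3, in 15 of its 15 libraries above 0, as in Clec4a2, with 14 of 16, although Clec4a3 shares no such window and no exon with another annotated gene. Clec7a had fractional reads in 5 of 16 libraries and Clec5a in 2 of 16. Clec4a3 does share coding stretches shorter than the window. The longest were 40 bases with Clec4a4, 38 with Clec4b1, 36 with Clec4b2 and 34 with Clec4a2. Where the split reads of Clec4a3 also fit was not tested, so its values are uncertain by reads that the authors' counting may have divided.

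Clec4a1, of the same family, and Clec12a, which encodes the inhibitory receptor MICL for uric acid crystals, were low in most libraries. Clec4a1 stood at 1.61, 7.26, 3.37 and 0 FPKM at day 0, and its highest value was 23.4 FPKM in day 7 replicate 3, where the other 3 libraries were at 0.265 FPKM or less. Clec12a stood at 0.0754, 0.0178, 33.7 and 3.69 FPKM at day 0, and no library of a later day passed 6.03 FPKM. In both genes 1 library set the mean of its day. No comparison was called for either (limma, adjusted p of 0.522 or more).

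**Figure D4:**
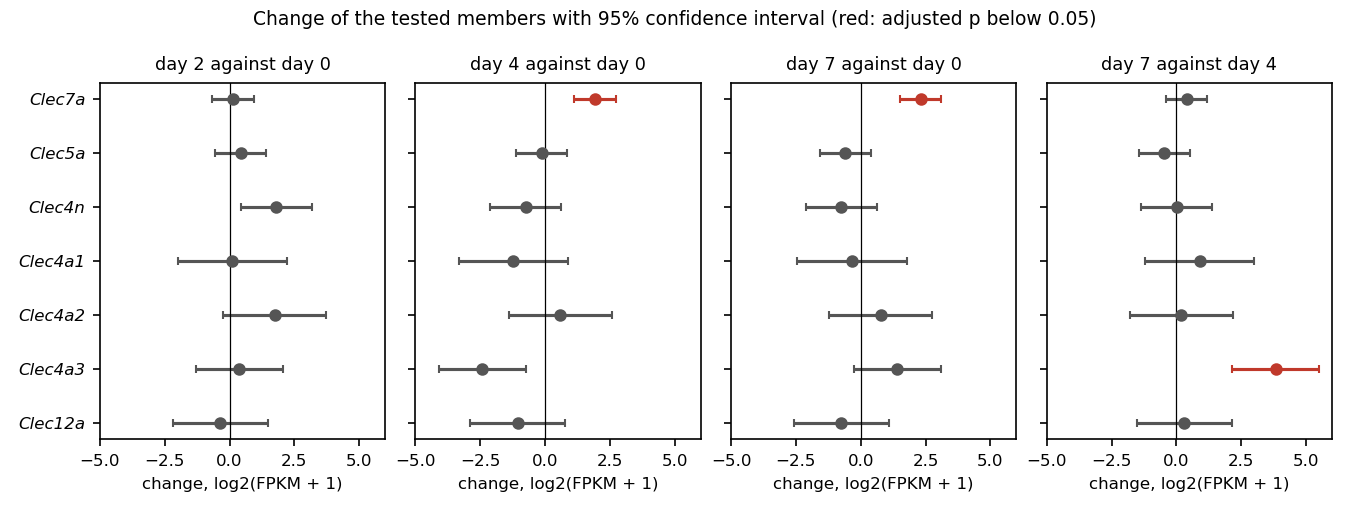
Change in log2(FPKM + 1) (horizontal axes) of the 7 tested receptors in 4 comparisons, with 95% confidence intervals and red where the limma adjusted p is below 0.05. The red points are Clec7a at days 4 and 7 against day 0 and Clec4a3 at day 7 against day 4.

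The 7 tested receptors did not move as a group. Their median change in log2(FPKM + 1) was 0.37 at day 2, −0.76 at day 4 and −0.34 at day 7, where the median of all tested genes was 0.04, 0.16 and −0.07. At day 4, 2 of the 7 changes were positive, and at day 7, 3 of 7. Across the 16 libraries the correlations of log2(FPKM + 1) between pairs of members ran from −0.51 (Clec7a with Clec4n) to 0.57 (Clec5a with Clec12a). These are descriptions over libraries that share their days and their makeup. In the cluster of Clec4a and Clec4 genes, the change from day 4 to day 7 had a 95% confidence interval of 2.15 to 5.5 for Clec4a3, −1.79 to 2.17 for Clec4a2, −1.21 to 3.0 for Clec4a1 and −1.36 to 1.38 for Clec4n. The differences between these genes were not tested.

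Outside the members, the genes with the course most like that of Clec7a over the 16 libraries were Cd63, a tetraspanin of late endosomes (Pearson r = 0.91), its pseudogene Cd63-ps (r = 0.90), which can share reads with it, and the interferon-inducible gene Ifi204 (r = 0.90). For Clec4a3 they were Mat2b, Dynlt3 and Map1lc3a, with r of 0.83, 0.83 and 0.79, which fell to 0.58, 0.72 and 0.53 without the 2 libraries farthest from the median of Clec4a3. For Clec5a they were Akr1b10, Commd8 and Iscu, with r of 0.77, 0.77 and 0.75, and for Clec4n Dhx57, Pira2 and Arhgap15, with r of 0.82, 0.82 and 0.74. For Clec4a2 they were Gpr183, Clec4a4 and Nmi, with r of 0.76, 0.75 and 0.73, and Clec4a4 shares sequence with it as shown above. For Clec4a1 they were Asxl2, Plxna4os3 and Mrc2 (r = 0.79, 0.78 and 0.77), and for Clec12a Tpp1, Ighv11-2 and Igkv14-126 (r = 0.78, 0.77 and 0.76). Without the 2 farthest libraries r stayed at 0.84 to 0.92 for the 3 genes of Clec7a and lay between 0.49 and 0.89 for those of the other 5 members. All are the highest of many correlations over libraries of the same days and are given as a description. The genes ranked were fewer than the 14795 tested, since unnamed models, mitochondrial genes and duplicated names were left out.

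Among 47 other C-type lectin-like genes, 8 were tested and 1 passed at days 4 and 7, where 5.34% and 0.406% of all genes were called: Cd72, an inhibitory co-receptor best known from B cells. Cd72 averaged 6.36 ± 6.22 FPKM at day 0, 38.4 ± 7.01 at day 2, 81.3 ± 34.0 at day 4 and 60.7 ± 31.7 at day 7 (SD, n = 4). It rose by 3.79 in log2(FPKM + 1) at day 4 (limma, adjusted p = 0.00442) and by 3.29 at day 7 (adjusted p = 0.0345), with 4 of 4 libraries above all of day 0 each time. The most abundant gene of the list was Cd302, at a mean of 73.4 FPKM over the 16 libraries, and it was not called in any of the 5 comparisons (limma, adjusted p of 0.30 or more). Some lectins of other myeloid cells were near 0 and others were not. Cd209a, Clec9a and Clec4f never reached 1 FPKM. Mrc1 was at 1 FPKM or more in 10 of 16 libraries and Mrc2 in 7, with highest values of 19.1 and 10.5 FPKM. Mgl2, Cd209f and Clec10a stood at 9.75, 4.52 and 4.14 FPKM in their highest library. These last examples were chosen after their values were seen.

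The partner chains were abundant throughout. Tyrobp (DAP12) averaged 3727 ± 1824 FPKM at day 0 and 4025 to 4866 FPKM at the later days, and Fcer1g (FcRγ) 2004 ± 987 FPKM at day 0 and 2662 to 2820 FPKM later, and neither was called. Syk averaged 1.56 to 3.03 FPKM over the days and Card9 4.72 to 16.9 FPKM, and neither was called. These 4 genes were picked for their role after their values were seen. Of the 24 activating adaptors and kinases, 21 were tested, and 2 rose at day 4, where 5.34% of all genes were called: the Src-family kinase gene Fgr by 3.30 in log2(FPKM + 1) (limma, adjusted p = 0.0256) and Lcp2, which encodes the adaptor SLP-76, by 1.44 (limma, adjusted p = 0.00597). None of the 21 was called at day 2 or day 7, where 5 and 4 had an unadjusted p under 0.05 in limma, and their median change was 0.63, 0.64 and −0.16 at days 2, 4 and 7. Lcp2 averaged 18.5 ± 9.91 FPKM at day 0 and 49.4 ± 19.6 FPKM at day 4. Fgr was at 0.0509 FPKM or less in every library of day 0 and at 4.65 FPKM or more in every library of day 4. It was thus let into the test by the days on which it was high, and its call is no independent support.

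Of 8 inhibitory phosphatases and adaptors 7 were tested and none was called against day 0, with 0, 1 and 1 at an unadjusted limma p under 0.05 at days 2, 4 and 7. The most abundant was Ptpn6 (SHP-1), at 153.7 ± 74.5 FPKM at day 0 and 167.0 ± 64.0 FPKM at day 4. Of 4 genes for reported ligands of these receptors none was called, and Lgals9 was the only one with an unadjusted limma p under 0.05 at days 2, 4 and 7. It encodes galectin-9, a reported ligand of Dectin-1, and averaged 242.2 ± 119.5 FPKM at day 0 and 497.7 ± 146.7 FPKM at day 4, a change of 1.17 (limma, adjusted p = 0.108). The labels do not say which cells of the retina release these proteins, and only sorted cells were measured.

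Of 15 genes known as targets of Syk and Card9, the cytokine genes Tnf, Il1b and Ccl3 rose at day 4, where 5.34% of all genes were called. Only 4 of the 15 were tested, since the others did not reach 1 FPKM in 4 libraries, and the fourth, Egr2, did not pass (0.32, limma, adjusted p = 0.876). Others of the list were near 0 at day 4: Il6 averaged 0.248 FPKM, Il10 0.0121 FPKM and Cxcl2 0.0103 FPKM, and Cxcl1 and Csf2 were listed at 0 in all 4 libraries, as genes named here after their values were seen. Tnf and Il1b were under 1 FPKM in every library of day 0 and above it in every library of day 4, so they were let into the test by the days on which they were high. Tnf averaged 0.0309 FPKM at day 0 and 41.4 ± 11.2 FPKM at day 4, Ccl3 35.3 ± 26.3 and 458.9 ± 170.5 FPKM, and Il1b was listed at 0 in all 4 libraries of day 0 and averaged 57.0 ± 39.5 FPKM at day 4. The changes in log2(FPKM + 1) were 5.32 for Tnf and 3.95 for Ccl3 (limma, adjusted p = 0.00429 and 0.00342). At day 7 Ccl3 was called (2.93, limma, adjusted p = 0.0488), while Tnf at 8.97 ± 11.4 FPKM and Il1b at 10.5 ± 12.2 FPKM were not. The day 7 changes of Tnf and Il1b against day 0 were 2.37 and 2.32 (limma, adjusted p = 0.278 and 0.352). That of Il1b was 4.44 in replicates 1 and 2 and 0.20 in replicates 3 and 4. From day 4 to day 7, Tnf changed by −2.95, Il1b by −3.24 and Ccl3 by −1.02. None of these 3 changes was called (limma, adjusted p = 0.0986, 0.111 and 0.425). The Clec7a level at day 7 was as high as at day 4 or higher, with a mean ratio of 1.33. Many other receptors drive these cytokines, and whether Clec7a does so here was not tested. Immediate early and handling genes summed to 114.8 to 1457 FPKM at day 0 and to 141.5 to 345.1 FPKM at day 2. Their sums were 712.2 to 955.3 FPKM at day 4 and 228.1 to 1201 FPKM at day 7. From day 2 to day 4 all 10 had positive changes, and 1 was called, Ier2 (3.43, limma, adjusted p = 0.0208), where 0.453% of all genes were called. The part of handling in the cytokine changes was not tested.

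**Figure D5:**
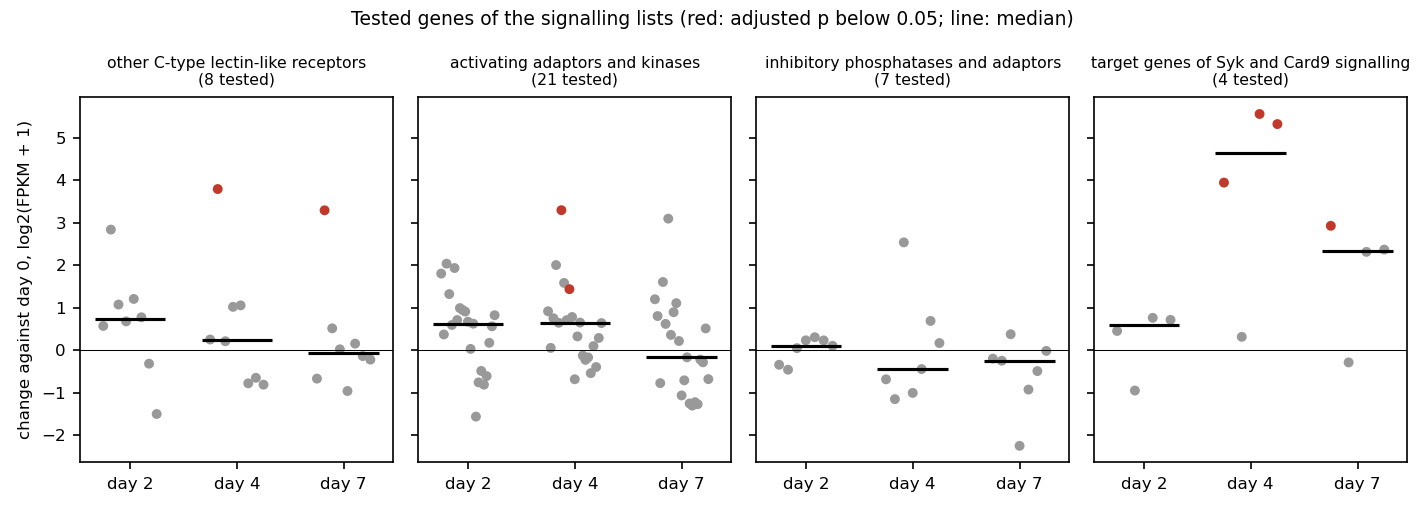
Change against day 0 in log2(FPKM + 1) (vertical axis) of the tested genes of 4 lists at days 2, 4 and 7, one point per gene, red where the limma adjusted p is below 0.05, with a line at the median. The red points are Cd72 at days 4 and 7, Fgr and Lcp2 at day 4, Tnf, Il1b and Ccl3 at day 4 and Ccl3 at day 7.

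Several of the receptors are also expressed by monocytes, neutrophils and other macrophages, so the markers of such cells, and of dendritic cells, are given beside them. Of 6 monocyte markers, Ccr2, Vcan and Chil3 stayed under 1 FPKM in all 16 libraries, and Ly6c2, S100a4 and Plac8 did not. The highest library of Ly6c2 stood at 18.3 FPKM at day 0 and at 7.88 FPKM at day 7, and that of S100a4 at 14.3 FPKM at day 7. The sum of 6 monocyte markers ranged from 0.411 to 20.3 FPKM at day 0, from 0.297 to 10.4 at day 4 and from 6.39 to 23.8 at day 7, where Plac8 rose by 3.14 (limma, adjusted p = 0.031). Plac8 was at 0.72 FPKM or less in every library of day 0 and at 6.18 FPKM or more in every library of day 7. It was thus let into the test by the days on which it was high. Neutrophil markers summed to 5.61 FPKM or less in every library, with 6 of 10 under 1 FPKM throughout, S100a8 and Ly6g among them. The sum of 6 dendritic cell markers was 3.77 to 16.1 FPKM at day 0, 8.98 to 22.9 at day 4 and 1.37 to 6.92 at day 7. Only 1 of the 6, Batf3, was tested. Batf3 averaged 14.3 ± 6.33 FPKM at day 4 and 2.49 ± 2.16 FPKM at day 7 (SD, n = 4). That change of −2.22 was not called (limma, adjusted p = 0.164). The sum of 8 markers of border-associated macrophages was 41.3 to 255.2 FPKM at day 0, 99.3 to 364.3 at day 4 and 20.4 to 91.7 at day 7. Lyve1, a gene of such macrophages, was at 3.36 FPKM or more in every library of day 0 and at 1.22 FPKM or less at days 4 and 7. It reached the filter through the 4 libraries of day 0, where it is high, so its tests are no independent support. It fell by 2.95 in log2(FPKM + 1) at both day 4 and day 7 (limma, adjusted p = 0.00713 and 0.0293). It was the only one of the 7 tested markers of this list that passed. At day 4, 5 of the 7 had positive changes, such as Pf4, which averaged 63.4 ± 73.6 FPKM at day 0 and 139.4 ± 104.9 FPKM at day 4 (SD, n = 4; change 1.51, limma, adjusted p = 0.223). Clec7a had its highest mean at day 7, when the border-associated sum had its lowest range and the monocyte sum its highest. The part of these cells in the level of any member was not tested.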

How the data were processed

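RNA of sorted retinal microglia was sequenced in 16 libraries, 4 per day, grouped and numbered as labelled. Amplified cDNA went into Nextera XT libraries, per the labels' protocols, a kit that does not mark strand. The deposited values are FPKM per gene. The submitters' processing notes name STAR 2.7.2b, featureCounts 1.6.1 and the build GRCm38.p6 (mm10), and the sources used here do not give how reads that fit several genes were counted. FPKM multiplied by length came out in steps of 0.01 read, and 47.0 to 64.8% of the low values were whole reads (tolerance of 0.02 read), so the values were tested as FPKM and not as counts. PCR copies are counted as reads, so read floors cover counting error only. All 37 mitochondrial genes are listed at 0, so a 0 may not be a measurement.

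Changes were tested two-sided with limma 3.58.1 (R 4.3.3; lmFit, eBayes with trend) on log2(FPKM + 1), a scale that understates the change of low genes, for the 14795 genes that reached 1 FPKM in 4 or more libraries. All 16 libraries entered a single fit with a mean per day and the first 4 digits of the title code as a covariate. P-values were adjusted by the Benjamini-Hochberg method over all tested genes, with a threshold of 0.05. The fit was tested on simulated data. Gene IDs matched GENCODE M21 with version for 98.4% of 55385 genes, and this annotation gave exon overlaps and the windows of 50 bases shared between transcripts.

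The members, gene lists and tests were chosen with earlier results of these data known. Named genes were the 9 members, up to 4 called members per list (or, with none called, up to 4 of the highest level), and the 3 genes of the highest correlation with each tested member, without unnamed models, mitochondrial genes and duplicated names. Same-numbered replicates of different days correlated between −0.06 and 0.23 in 24 pairs, so the numbers were not taken as pairs. A gene of the microglia marker list is not reported here, and sums over that list are over its other 9 genes.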

Additional observations from a re-analysis of the deposited data

Results flagged for a closer look

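In 35 groups of 4 libraries (9 genes, 4 days, without Clec4d at day 0, where all are 0), the gap between the highest or lowest library and its nearest neighbour was divided by the range of the group, both in log2(FPKM + 1), and 8 groups had a value above the 95% limit. Chance passes that limit in about 1 group of 20 where values are spread normally. That rate does not apply to groups near 0, since a group with all libraries but 1 at 0 always gives a value of 1. The library of day 7 replicate 3 stood apart for Clec4a1, with a value of 0.9263 (23.4 FPKM against 0.265 or less), and day 4 replicate 2 with 0.9503 (1.93 FPKM against 0.0549 or less). Day 0 replicate 4 stood apart for Clec4n with 0.9318 (6.46 FPKM), and a single read set the value of 1 for Clec4n at day 4 and at day 7. For Clec4d the value was 0.8446 at day 7, from replicate 1 (2.26 FPKM), and 1 at day 2, from a single read. For Clec4e it was 0.9844 at day 2, from 3 reads in replicate 1. No group of Clec7a, Clec5a, Clec4a2, Clec4a3 or Clec12a passed the limit on this scale. On the FPKM scale 11 groups did: these 8, Clec12a at day 0 (0.891) and Clec4a2 at days 0 and 4 (0.833 and 0.858).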

How the results depend on the processing

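Over 35 member results (7 genes, 5 comparisons) and 1005 alternative values, 917 kept direction and side of the threshold, 25 lost the call, 4 gained it and 59 changed sign; none of the sign changes was in a called result, and their causes were not tested. Setting by setting, the number of genes called (in this order: days 2, 4 and 7 against day 0, day 4 against 2, day 7 against 4) was 46, 790, 60, 67 and 241 in the reported fit; 14, 308, 13, 2 and 63 without the filter (more genes tested); 44, 864, 67, 111 and 324 with 5 FPKM; 53, 277, 80, 20 and 71 with median-of-ratios scaling; 126, 379, 28, 0 and 104 with the full title code; 0, 0, 12, 65 and 3 with the marker covariate; 39, 401, 2, 32 and 6 with only the days compared; 20, 303, 2, 1 and 0 in replicates 1 and 2; 0 in all 5 in replicates 3 and 4; 39, 576, 39, 2 and 136 with a robust fit; 36, 590, 39, 46 and 172 without the title code; 46, 684, 38, 53 and 194 with a pseudocount of 0.1; and 1, 698, 48, 0 and 241 without the libraries of prefix F. Leaving out 1 library gave 8 to 77, 267 to 955, 16 to 57, 2 to 104 and 62 to 256. The replicate number as a block gave 30, 566, 22, 31 and 152 genes and left the number of members called at 0, 1, 1, 0 and 1, changing no call of a member; the labels do not pair the numbers. Scaling moved the higher share of calls from 80.4 to 69.8% at day 2, 86.6 to 57.0% at day 4, 95.5 to 70.0% from day 2 to 4 and 7.88 to 43.7% from day 4 to 7.

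The number of members called fell from 1 to 0 where the report says that a call of Clec7a or Clec4a3 ended, and rose to 1 from day 2 to day 4 with the filter of 5 FPKM. Leaving out 1 library gave 0 to 1 members in every comparison except day 4 against day 0, where 1 was called each time.

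Sign changes (log2 scale) at day 2 against day 0 were −0.0309, −0.10, −0.53, −0.0556 and −0.057 for Clec7a (scaling, full title code, marker covariate, replicates 3 and 4, without prefix F), −0.30 and −0.20 for Clec4a1 (covariate, replicates 1 and 2), −1.05 and −0.63 for Clec4a3 (covariate, replicates 3 and 4), −0.26 for Clec5a (covariate), and 0.11 and 0.85 for Clec12a (pseudocount 0.1, replicates 1 and 2). At day 4 against day 0 they were −0.99 and −0.98 for Clec4a2 (covariate, replicates 3 and 4), 0.40 and 0.61 for Clec5a (full title code, replicates 1 and 2) and 0.49 for Clec12a (replicates 1 and 2). At day 7 against day 0 they were 1.24 for Clec4a1 and −1.05 for Clec4a2 (replicates 3 and 4), and 0.10 for Clec5a and 0.66 for Clec12a (replicates 1 and 2). From day 2 to day 4, with the full title code, they were 0.66 for Clec4a2, 0.14 for Clec5a and 0.71 for Clec12a. From day 4 to day 7 they were −0.51 for Clec4a1 (replicates 1 and 2), −0.15, −0.58 and −0.0681 for Clec4a2 (pseudocount 0.1, full title code, replicates 3 and 4), −0.65 and −0.0316 for Clec4n (full title code, replicates 3 and 4), 0.14 for Clec5a (covariate) and −0.22 for Clec12a (full title code).

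With 1 library left out, changes at day 2 against day 0 ran from −0.22 to 0.44 for Clec7a, −0.47 to 0.71 for Clec4a1, −0.10 to 1.02 for Clec4a3, −0.0743 to 0.74 for Clec5a and −0.75 to 0.55 for Clec12a. At day 4 against day 0 they ran from −1.05 to 0.0083 for Clec4n and −0.64 to 0.17 for Clec5a, and at day 7 against day 0 from −1.56 to 0.15 for Clec4a1, −1.04 to 0.0178 for Clec4n and −1.14 to 0.15 for Clec12a. From day 4 to day 7 they ran from −0.33 to 1.35 for Clec4a1, −0.41 to 1.26 for Clec4a2, −0.0242 to 0.0248 for Clec4n and −0.26 to 0.91 for Clec12a. Depth limits Clec4d, Clec4e and, at days 4 and 7, Clec4n, where a few reads stand behind each value.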
